A study of Mus musculus with 8 samples.

Results

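The genes described here encode the proteins of the basement membrane and the integrin receptors that hold cells to it. They were taken from a fixed list of 39 gene symbols: 10 laminin chains, 6 type IV collagen chains, 6 nidogens, proteoglycans and multiplexins, 3 other ligands and receptors (Fn1, Npnt and Dag1), 9 integrin alpha chains and 5 integrin beta chains. Of the 39, 38 had a probe under their symbol or an older name (Agrin for Agrn, Lamb1-1 for Lamb1) among the 27828 gene names on the array, and 37 were bright enough to be tested, out of 18512 genes tested in all. Col4a3 was not tested, because none of its 3 probes stood well above background on more than 1 of the 8 arrays. Hspg2, which encodes perlecan, had no probe under its own symbol.

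The samples were dorsal pancreatic epithelia dissected by hand from mouse embryos at e12.5 (embryonic day) and measured on single-colour Agilent arrays. The 4 wild-type samples carried floxed Sox9 alleles (Sox9 fl/fl) and no Cre. The 4 mutant samples were littermates with the same floxed alleles plus Pdx1-Cre, a transgene that drives the recombinase from the promoter of Pdx1 in the early pancreas. The floxed line was on a mixed FVB/N and C57Bl/6J background and the Cre line on C57Bl/6J. Each sample held RNA of 3 embryos, of which about 250 ng was labelled. Every mutant sample and no wild-type sample carried Cre, so that the effects of Cre and of losing Sox9 cannot be told apart. The design text of the series counts fewer replicates than there are arrays of a genotype, so n = 4 rests on the sample labels, and the p-values measure the spread between these arrays.

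A basement membrane is a thin sheet of matrix under an epithelium. Laminins, each built from an alpha, a beta and a gamma chain, and type IV collagens form its networks, which nidogens and heparan sulfate proteoglycans join. Cells bind it through integrins, each a pair of an alpha and a beta chain, and through dystroglycan. In the embryonic pancreas this sheet lies between the branching epithelial tree and the surrounding mesenchyme, and mesenchymal and endothelial cells also make many of its parts.

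All values are log2 signal relative to the 75th percentile of the same array, so that 0 is the level of that percentile and 1 unit is a doubling; brightness is not comparable between probes, and each gene is compared only with itself or by its change. That percentile lay between a signal of 372 and 641, and between 59.4% and 77.7% of spots stood well above background. Sox9 itself read 1.82 to 3.01 on the wild-type arrays and -1.79 to 0.77 on the mutant arrays (difference -2.70, limma adjusted p = 0.0252). Of 20 epithelial marker genes, 18 fell and none rose, among them Cdh1 (-2.51, adjusted p = 0.0140), the adhesion protein E-cadherin, and the list's mean level was 0.93 to 1.45 in wild-type and -1.30 to -0.06 in mutant arrays. Of 20 mesenchymal markers, 6 rose and none fell (mean level 2.05 to 2.29 in wild-type, 2.55 to 2.94 in mutant arrays), with 2 of 15 endothelial, 2 of 9 mesothelial, 1 of 9 smooth muscle and pericyte and 4 of 13 macrophage and leukocyte markers rising; 3 of 9 neural crest and glial markers fell. The defining markers Cdh1, Epcam, Col1a1, Wt1, Pecam1, Acta2, Csf1r and Sox10 stood well above background on all 8 arrays, so samples labelled as epithelium held measurable markers of other cell types in both genotypes. In such bulk samples, fewer cells of a type and less RNA per cell cannot be told apart. The part of these marker shifts in the results below was not tested, except where a member is set against Cdh1. The arrays lay on 3 slides, each holding both genotypes. The Y-linked genes Ddx3y, Eif2s3y and Kdm5d read -7.44 to -3.78 on wild-type arrays 1, 2 and 4 and -3.43 to 0.89 on the others, so embryo sex ran in part with genotype.

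**Figure D1:**
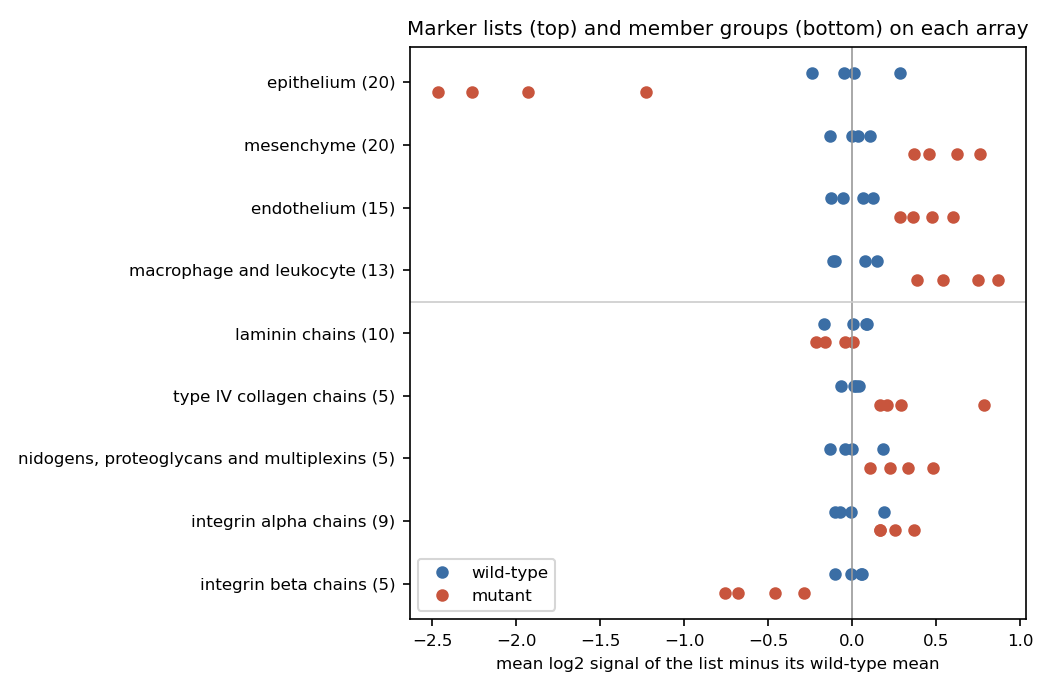
Mean log2 signal of each list on each array, minus its wild-type mean (horizontal axis, log2 units); each point is 1 array, and the number of genes is in parentheses. The epithelial markers lie far to the left in the mutant arrays, whereas the laminin chains overlap between genotypes and the integrin beta chains are lower in all 4 mutant arrays (-0.55) only with the dim Itgb6: without it the other 4 chains overlap between genotypes (0.56 to 0.98 in wild-type, 0.66 to 0.91 in mutant arrays, difference -0.04).

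Among the 37 members tested, 3 rose and 2 fell in the mutant at an adjusted p under 0.05. Nidogen-1 (Nid1), integrin alpha 8 (Itga8) and integrin beta 5 (Itgb5) rose, and integrin beta 4 (Itgb4) and integrin beta 6 (Itgb6) fell, the latter on a probe that stood well above background on only 1 of the 4 mutant arrays. These 5 are 13.5% of the members tested, against 5.37% of all genes tested. The members were chosen with earlier results of these data known, so the shares given here are descriptive and were not tested. By direction, 8.11% of the members rose, against 1.55% of all genes, and 5.41% fell, against 3.82% of all genes. The 13.5% and the 5.41% include Itgb6, whose probe met the filter through the wild-type arrays. With only probes well above background on all 8 arrays, Itgb4 alone was called lower. The median difference was 0.16 over the members (range -2.58 to 0.74) and 0.02 over all genes; 24 members lay above 0 and 13 below. The groups did not overlap in 7 of the 37 members that were higher in the mutant (Nid1, Nid2, Itga1, Itga8, Itga9, Itgb1 and Itgb5), against 7.23% of all genes. They did not overlap in 3 of the 37 that were lower (Lama5, Itgb4 and Itgb6, the last kept through the wild-type arrays), a share near the 7.99% of all genes. With the authors' own value table in place of the processed signal, 7 of the 37 members passed, against 7.09% of all genes. Of the 37, 5 were higher (Nid1, Nid2, Itga8, Itga9 and Itgb5, against 3.01% of all genes) and 2 lower (Itga6 and Itgb4, against 4.07% of all genes).

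**Figure D2:**
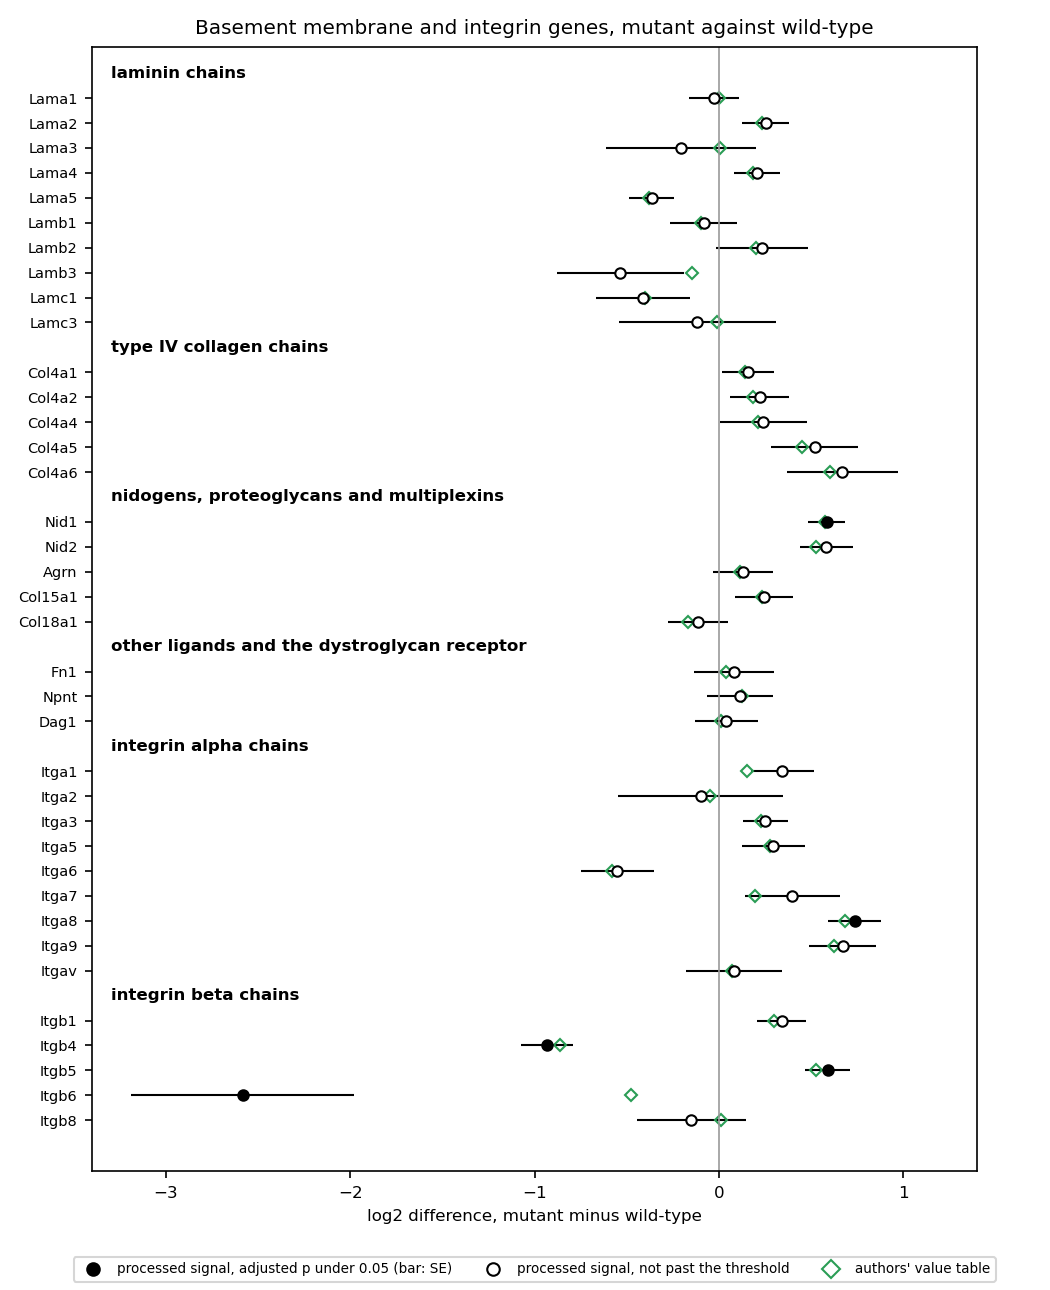
Log2 difference, mutant minus wild-type (horizontal axis), of the 37 members tested, by role. Circles are the processed signal with its SE from limma (n = 4 arrays a genotype), filled where the adjusted p is under 0.05, and diamonds are the same difference in the authors' value table; the 2 sources differ most for Itgb6 (-2.58 against -0.48).

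The laminins, the scaffold that cells meet first, showed no change past the threshold. None of the 10 chains passed, their median difference was -0.10 and their range -0.54 to 0.25, with 7 below 0 and 3 above. Laminin alpha 5 (Lama5), the alpha chain of mature epithelial basement membranes, came closest. Its probe (mm8 chr2:180105781-180105795, the part of the probe that the file places) read 1.99, 2.04, 2.07 and 1.91 on wild-type arrays 1 to 4 and 1.76, 1.42, 1.82 and 1.54 on mutant arrays 1 to 4. Every mutant array was below every wild-type array, a difference of -0.37 (SE 0.12, adjusted p = 0.132). Laminin alpha 4 (Lama4), a chain of blood vessel basement membranes, read 0.08, 0.38, -0.10 and 0.26 in wild-type and 0.39, 0.43, 0.30 and 0.33 in mutant arrays (0.21, SE 0.13, adjusted p = 0.468). Laminin alpha 1 (Lama1), an alpha chain of the early embryo, read -0.18, -0.26, -0.38 and -0.30 in wild-type and -0.27, -0.64, -0.09 and -0.23 in mutant arrays (-0.03, SE 0.14, adjusted p = 0.961). Both genotypes overlapped for Lama4 and Lama1. A second, dimmer probe of Lama1 was lower on every mutant array (-0.66, adjusted p = 0.162 in a fit over single probes).

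Because the level of an array cancels, the difference between a pair of genes on the same array shows whether they changed unequally. Of 18 such pairs listed, 17 could be measured, and 5 had groups that did not overlap. Each gave p = 0.0286, the smallest that the exact permutation test over 70 assignments allows (two-sided, 0.0971 after Benjamini-Hochberg adjustment over the 17 pairs, so none passed). The share of such pairs over all genes was not computed, and Lama5, Itgb4, Itgb5 and Itgb6 also separated the genotypes alone. Among the 5, Itgb6 relative to Itgb5 rests on a probe that met the filter through the wild-type arrays, so that pair adds no support. Lama5 was lower in the mutant relative to Lama4 (-0.57) and relative to Lama1 (-0.34). On slides 1, 2 and 3 the Lama5 and Lama4 pair gave -0.13, -0.87 and -0.80, so its size varied with the slide. Lama1 relative to Lama4 gave -0.23, with overlapping groups (exact p = 0.1714).

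The beta and gamma laminin chains moved little beyond their spread. Laminin gamma 1 (Lamc1), shared by most laminins, read 4.81, 3.90, 3.81 and 4.16 in wild-type and 3.56, 3.61, 4.26 and 3.61 in mutant arrays (-0.41, SE 0.25, adjusted p = 0.476). Mutant array 3 was high for Lamc1 and lay within the wild-type range, while the other mutant arrays lay below all wild-type arrays. Laminin beta 1 (Lamb1) read 1.49, 2.17, 2.10 and 1.77 in wild-type and 1.97, 1.56, 1.67 and 2.00 in mutant arrays, with overlapping groups (-0.08, SE 0.18). The dim chains Lamb3 and Lamc3, of laminins in stratified epithelium and in nerve and vessel walls, had wider spreads. Lamb3 read -4.19, -3.94, -2.61 and -3.72 in wild-type and -3.61, -4.27, -4.37 and -4.35 in mutant arrays (-0.54, SE 0.35, adjusted p = 0.50). Lamc3 read -3.63, -5.06, -3.21 and -3.79 in wild-type and -3.54, -3.61, -4.75 and -4.25 in mutant arrays (-0.12, SE 0.43). Neither group separated in either gene. Lamb3 relative to Lamb1 (-0.45, exact p = 0.2286) and Lamc3 relative to Lamc1 (0.29, exact p = 0.6857) overlapped as well. Of the remaining chains, Lama2, the alpha chain of muscle and mesenchymal basement membranes, differed by 0.25, Lamb2 by 0.23 and Lama3 by -0.20, with adjusted p between 0.358 and 0.889.

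The type IV collagen chains, which form the second network of the sheet, all lay above 0 in the 5 chains tested, and none passed. Their differences ran from 0.16 to 0.67 with a median of 0.24, and the mean of the 5 was higher on every mutant array (0.86 to 1.48) than on any wild-type array (0.63 to 0.73). That mean rested in part on mutant array 3, the highest of the 4. Col4a1, a chain of the widespread form, read 2.11, 2.25, 1.86 and 2.33 in wild-type and 2.23, 2.18, 2.55 and 2.23 in mutant arrays (0.16, SE 0.14, adjusted p = 0.689). Col4a2, its partner, read 2.47, 2.56, 2.15 and 2.60 in wild-type and 2.53, 2.52, 3.02 and 2.60 in mutant arrays (0.22, SE 0.16, adjusted p = 0.567). Both chains were lowest on wild-type array 3 and highest on mutant array 3, and their groups overlapped. The pair kept nearly the same distance on every array: Col4a2 relative to Col4a1 changed by 0.06 (exact p = 0.1714). These genes stand head to head, and their annotated starts in RefSeq bound a stretch of 22 bases (GRCm38.p6, chr8:11312805-11312826, plus strand). Col4a2 runs right from the left end of the stretch, and Col4a1 runs left from the right end. The stretch therefore lies within both annotated transcripts, and it is printed because they overlap there.
Col4a1 and Col4a2 starts: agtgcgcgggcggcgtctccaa

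Col4a5 and Col4a6, a pair of head-to-head chains on the X chromosome whose annotated starts lie 1343 bases apart, had the largest differences of the collagens. Col4a5 read -2.98, -2.63, -2.13 and -2.87 in wild-type and -1.94, -2.49, -1.74 and -2.37 in mutant arrays (0.52, SE 0.24, adjusted p = 0.293). Col4a6 read 1.68, 0.76, 0.97 and 1.06 in wild-type and 1.43, 1.97, 2.47 and 1.26 in mutant arrays (0.67, SE 0.30, adjusted p = 0.281). In each gene 1 wild-type array, array 3 for Col4a5 and array 1 for Col4a6, reached into the mutant range. Xist, the RNA of the inactive X chromosome, read -5.73 on mutant array 1 and 3.11 to 4.75 on the others. The part of embryo sex in these X-linked values was not tested. Col4a6 relative to Col4a5 changed by 0.15 (exact p = 0.7143) and Col4a5 relative to Col4a1 by 0.36 (exact p = 0.2857), both with overlapping groups. Col4a4 differed by 0.24 (adjusted p = 0.724).

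Nidogens, the rods that link laminin to type IV collagen, were higher in the mutant. Nid1 (mm8 chr13:13304276-13304335) read 3.66, 3.89, 3.86 and 3.74 in wild-type and 4.39, 4.37, 4.44 and 4.29 in mutant arrays. Every mutant array lay above every wild-type array, and Nid1 rose by 0.58 (SE 0.10, 1.5-fold, adjusted p = 0.0170). Nid2 (mm8 chr14:18601964-18602023) read 2.31, 2.32, 2.09 and 2.35 in wild-type and 2.73, 3.04, 3.06 and 2.56 in mutant arrays. Its groups did not overlap either, and its difference was as large, 0.58 (SE 0.14, 1.5-fold), with an adjusted p of 0.0574, just outside the threshold. Nid2 relative to Nid1 changed by -0.003 (exact p = 1.0), with overlapping groups. Both genes were higher in the mutant on all 3 slides, Nid1 by 0.55, 0.49 and 0.67 and Nid2 by 0.74, 0.56 and 0.71 on slides 1, 2 and 3. The call of Nid1 was lost without wild-type array 4 (adjusted p = 0.0631), mutant array 1 (0.0638) or mutant array 2 (0.0514). The call was also lost without the filter on dim probes (0.0572) and with replicate number as a block (0.111). That of Nid2 was gained with the authors' value table (0.0195), without mutant array 4 (0.0398) and with slide as a block (0.0212). The mesenchymal marker list was 0.55 higher in the mutant on average over the same arrays, and its part in the rise of Nid1 was not tested.

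The proteoglycans and multiplexins did not pass. Agrin (Agrn), a heparan sulfate proteoglycan, differed by 0.13 (SE 0.16, adjusted p = 0.802). A probe that the files name only by a sequence record, described there as mouse perlecan mRNA, lay at mm8 chr4:136842554-136842612. It differed by -0.16 (SE 0.21, adjusted p = 0.817 in the fit over all genes), with overlapping groups, and was not counted as a member. Col15a1, a multiplexin of vessel and muscle basement membranes, read -0.69, -1.04, -1.20 and -1.19 in wild-type and -0.78, -0.96, -0.51 and -0.89 in mutant arrays (0.24, SE 0.16, adjusted p = 0.505). Col18a1, the multiplexin that yields endostatin, read 5.43, 4.91, 4.85 and 5.28 in wild-type and 4.91, 5.12, 5.16 and 4.83 in mutant arrays (-0.11, SE 0.16, adjusted p = 0.835). Genotypes overlapped in both, and Col18a1 relative to Col15a1 gave -0.35 (exact p = 0.0857).

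Of the other ligands and receptors, fibronectin (Fn1) differed by 0.08 (SE 0.22), dystroglycan (Dag1) by 0.04 (SE 0.17) and nephronectin (Npnt) by 0.11 (SE 0.18), with adjusted p between 0.851 and 0.955. Npnt, a ligand of integrin alpha 8, read -1.57, -1.84, -1.22 and -1.85 in wild-type and -1.45, -1.24, -1.63 and -1.73 in mutant arrays, with no separation of the genotypes.

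**Figure D3:**
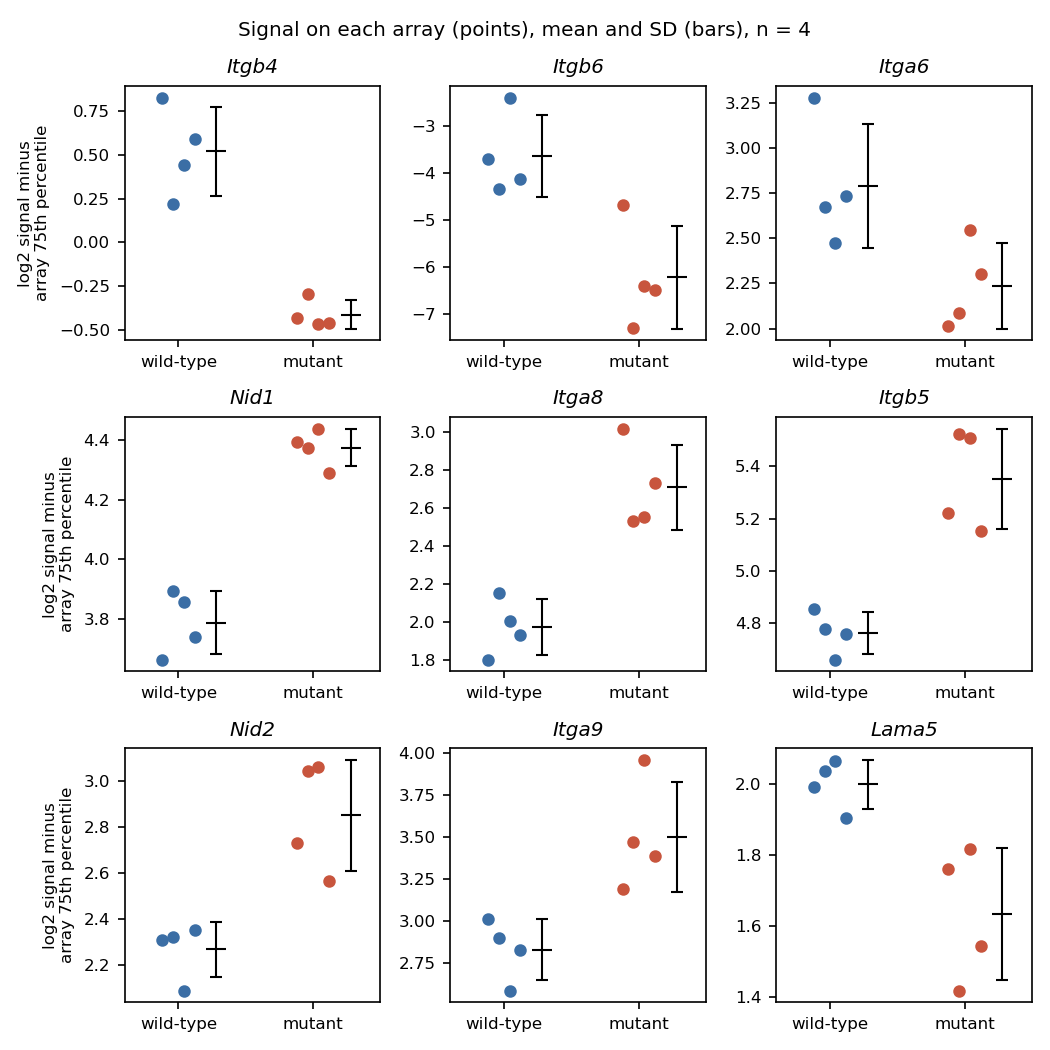
Log2 signal relative to the array's 75th percentile (vertical axis) for 9 members; each point is 1 array and the bars are the mean and SD of 4 arrays. In every panel except that of Itga6 the genotypes do not overlap, and the vertical scales differ between panels.

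The integrin alpha chains, which give each receptor its choice of ligand, held 1 change. Of 9 tested, 1 rose and none fell; 7 lay above 0 and 2 below, with a median of 0.30. Itga8, which pairs with beta 1 to bind nephronectin (mm8 chr2:12024688-12024747), read 1.80, 2.15, 2.00 and 1.93 in wild-type and 3.02, 2.53, 2.55 and 2.73 in mutant arrays. All mutant arrays were above all wild-type arrays, and the gene rose by 0.74 (SE 0.14, 1.67-fold, adjusted p = 0.0263). Its other kept probes differed by 0.71 (adjusted p = 0.0525) and 0.49 (0.389) in the fit over single probes, in the same direction. On slides 1, 2 and 3 the difference was 0.40, 0.87 and 0.67. The call was lost without wild-type arrays 1, 3 or 4 (adjusted p = 0.0652, 0.0644 and 0.0800) or mutant arrays 1 or 4 (0.0658 and 0.0534). It was also lost with quantile normalization (0.0501) and with no filter on dim probes (0.0718). Npnt relative to Itga8 gave -0.62, with overlapping groups (exact p = 0.0857).

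The stretch before the annotated start of Itga8 in RefSeq (GRCm38.p6, chr2:12301945-12302194, minus strand, read towards the gene) is printed because Itga8 was the alpha chain that rose and because it held the core letters of the motif that SOX proteins bind, AACAATG, in capitals. The first letter of the match lies 206 bases before the start. On either strand, 1080 of 32851 RefSeq promoter windows (3.29%) held these letters, and 1 of the 35 windows of the 28 members with an entry did, which is near that share. A match of letters is not a binding site.
Itga8 upstream: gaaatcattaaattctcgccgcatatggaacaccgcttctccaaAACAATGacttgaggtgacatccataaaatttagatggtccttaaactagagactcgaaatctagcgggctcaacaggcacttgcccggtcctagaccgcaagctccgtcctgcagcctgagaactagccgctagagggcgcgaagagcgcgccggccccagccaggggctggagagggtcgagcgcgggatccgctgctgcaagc

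Itga9, a receptor chain for tenascin and osteopontin, read 3.01, 2.90, 2.59 and 2.83 in wild-type and 3.19, 3.47, 3.96 and 3.39 in mutant arrays. Its groups did not overlap, with a difference of 0.67 (SE 0.18, adjusted p = 0.0750), and it passed with the authors' value table (0.62, adjusted p = 0.0230). Itga1, a collagen receptor chain, differed by 0.34 (adjusted p = 0.333) with groups that did not overlap, and 1 of its 2 other kept probes had the opposite sign (-0.04). The fibronectin receptor chain Itga5 read -0.11, -0.69, -0.67 and -0.54 in wild-type and -0.24, -0.12, 0.04 and -0.51 in mutant arrays (0.30, SE 0.17, adjusted p = 0.439). The laminin receptor chain Itga3 read -0.71, -0.77, -0.59 and -0.55 in wild-type and -0.26, -0.24, -0.57 and -0.54 in mutant arrays (0.25, SE 0.12, adjusted p = 0.327). Groups overlapped in both genes, and Itga3 relative to Itga5 gave -0.04 (exact p = 0.6286). Itga7, Itgav and Itga2 differed by 0.40, 0.08 and -0.10, with adjusted p between 0.503 and 0.959; Itga2 stood well above background on only 2 arrays of each genotype.

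Itga6, the laminin receptor chain that pairs with beta 1 and with beta 4, was lower in the mutant by each of its 3 kept probes. The brightest, which stands for the gene, read 3.28, 2.67, 2.47 and 2.74 in wild-type and 2.02, 2.08, 2.54 and 2.30 in mutant arrays. Mutant array 3 lay above wild-type array 3, so the groups overlapped, and the difference was -0.55 (SE 0.20, adjusted p = 0.166). The 3 probes lie apart on the plus strand of chromosome 2 (mm8) and share no base; their first 30 bases are shown because the size of the difference depended on the probe.
Itga6 probe 1: attctattcctgttgccgtcacaaaataag
Itga6 probe 2: gacacccagtatggacctacagtttcaact
Itga6 probe 3: tctggagtatcttggagcctagcacactgg

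Probe 1 (chr2:71655691-71655750) read -2.21, -2.44, -2.17 and -2.32 in wild-type and -3.35, -3.69, -3.78 and -3.41 in mutant arrays. It was lower on every mutant array (difference -1.27, SE 0.14, adjusted p = 0.0101 in the fit over single probes). Probe 2 (chr2:71656976-71657035) was lower on every mutant array as well (-0.79, SE 0.21, adjusted p = 0.0803), and probe 3 (chr2:71658755-71658814) is the brightest one above (adjusted p = 0.193 in that fit). With the mean of the 3 probes, or with the authors' value table (-0.58, adjusted p = 0.0487), Itga6 passed. Relative to Itga5 on the same array, Itga6 was lower on every mutant array (-0.85, exact p = 0.0286, 0.0971 adjusted), and on slides 1, 2 and 3 the pair gave -0.86, -0.61 and -1.13.

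The integrin beta chains held 3 of the 5 changes: of 5 chains tested, 1 rose and 2 fell. Of the 2 falls, that of Itgb6 was on a probe that met the filter through the wild-type arrays. Itgb4, which pairs only with alpha 6 and anchors epithelial cells to laminin, read 0.83, 0.22, 0.44 and 0.59 in wild-type and -0.43, -0.29, -0.47 and -0.46 in mutant arrays. The mutant arrays lay close together and below every wild-type array, and Itgb4 fell by 0.93 (difference -0.93, SE 0.14, 1.91-fold lower, adjusted p = 0.0118). On slides 1, 2 and 3 the difference was -0.69, -0.89 and -1.0. It passed with each of the 8 arrays left out in turn (highest adjusted p = 0.0448) and with the authors' value table (-0.86, adjusted p = 0.00233). It did not pass with replicate number as a block (adjusted p = 0.0716). Its 2 kept probes gave -0.93 each, but they are not independent: they lie on the plus strand of chromosome 11 (mm8 chr11:115824323-115824382 and chr11:115824333-115824392), start 10 bases apart and share 50 of 60 bases. Their first 30 bases are printed with the letters common to both stretches in capitals.
Itgb4 probe 1: gtccaggaacCATAAAGTGGGTAGAGGTGA
Itgb4 probe 2: CATAAAGTGGGTAGAGGTGAtacaaggtct

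Itgb1, the common partner of most alpha chains, did not pass. It read 0.89, 1.29, 1.0 and 1.33 in wild-type and 1.60, 1.45, 1.33 and 1.49 in mutant arrays, with groups that nearly met (0.34, SE 0.13, adjusted p = 0.212); its other kept probe gave -0.04. Itgb4 relative to Itgb1 was lower on every mutant array (-1.27, exact p = 0.0286, 0.0971 adjusted), and on slides 1, 2 and 3 by -0.73, -1.44 and -1.34. Itga6 relative to Itgb4 changed by 0.38 with overlapping groups (exact p = 0.1714).

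Itgb6, a chain of the epithelial receptor that activates latent TGF-beta, was dim. It read -3.69, -4.34, -2.38 and -4.12 in wild-type and -4.68, -7.30, -6.40 and -6.49 in mutant arrays (mm8 chr2:60401414-60406029, a span of 4616 bases, longer than the probe itself). All mutant arrays were lower, but only 1 of the 4 stood well above background, so the probe met the filter through the wild-type arrays and no fold is given. The difference was -2.58 (SE 0.61, adjusted p = 0.0488), and it depended on the signal used: it was -0.48 in the authors' value table (adjusted p = 0.103) and -0.48 with normexp background correction (0.0716). Its other kept probe was well above background on 4 wild-type and 0 mutant arrays, so it too was kept through the wild-type arrays and adds no support. It read -4.33 on average in wild-type and -6.47 in mutant arrays. No fold is given for it either, because it was not well above background on any mutant array. The call held with 1 array left out only where that was mutant array 1 (0.0317). Without any other array the adjusted p was 0.0663 to 0.123. The call was also lost with array weights (-1.75, adjusted p = 0.140), without the filter on dim probes (0.108) and with replicate number as a block (0.0753). With the 75th percentile over probes bright on all arrays it was lost as well (0.0516).

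Itgb5, which joins alpha v to form a vitronectin receptor (mm8 chr16:33868784-33868843), read 4.85, 4.78, 4.66 and 4.76 in wild-type and 5.22, 5.52, 5.51 and 5.15 in mutant arrays. All mutant arrays were higher, and Itgb5 rose by 0.59 (SE 0.12, 1.5-fold, adjusted p = 0.0331), by 0.73, 0.53 and 0.72 on slides 1, 2 and 3. Its call held with 1 array left out only where that was mutant array 4 (0.0335). Without any other array the adjusted p was 0.0603 to 0.0945. The call was also lost without the filter on dim probes (0.0930) and with replicate number as a block (0.151). Itgb8, another partner of alpha v, read -3.36, -2.91, -3.87 and -2.74 in wild-type and -3.60, -3.62, -2.72 and -3.55 in mutant arrays (-0.15, SE 0.30, adjusted p = 0.889). Its genotypes overlapped. Itgb6 relative to Itgb5 read lower on every mutant array (-3.17, but -1.01 in the authors' value table). Because Itgb6 met the filter through the wild-type arrays, this pair adds no support. Itgb8 relative to Itgb5 gave -0.74 with overlapping groups (exact p = 0.0571).

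**Figure D4:**
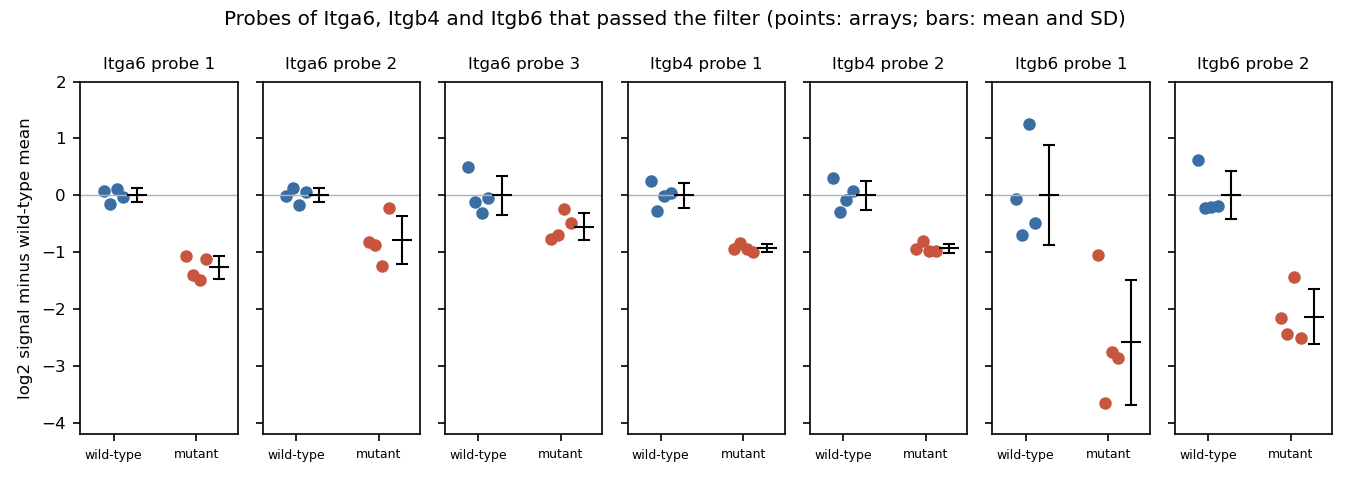
Log2 signal of each kept probe of Itga6, Itgb4 and Itgb6, minus the wild-type mean of that probe (vertical axis); each point is 1 array and the bars are the mean and SD of 4 arrays. The Itga6 probes differ in size (-1.27, -0.79 and -0.55), the overlapping Itgb4 probes do not, and the dim Itgb6 probes have the widest spread.

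Among members with more than 1 kept probe, 5 of 22 had probes with differences of opposite sign (Fn1, Itga1, Itgav, Itgb1 and Lama3), all of them genes that did not pass. The other 15 tested members had a single kept probe, among them Nid1, Nid2, Itga9, Itgb5 and Lama5.

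**Figure D5:**
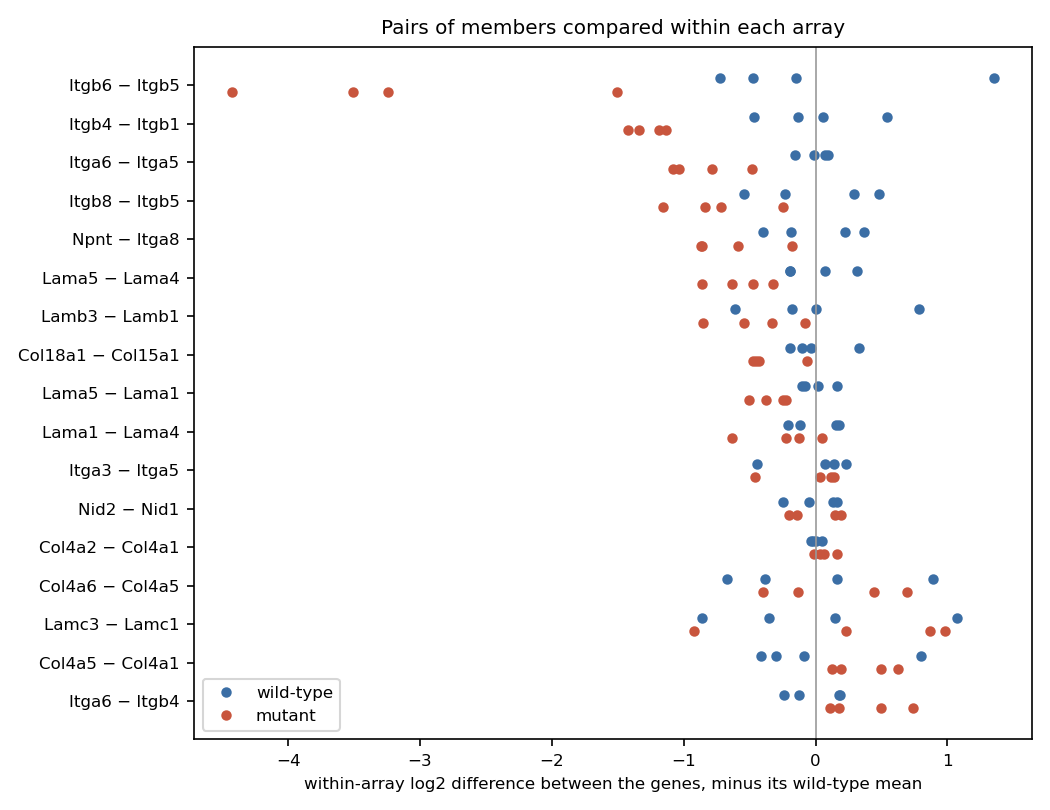
Within-array log2 difference between the genes of each pair, minus its wild-type mean (horizontal axis); each point is 1 array. The 5 pairs whose genotypes do not overlap are Itgb6 − Itgb5, Itgb4 − Itgb1, Itga6 − Itga5, Lama5 − Lama4 and Lama5 − Lama1. Of these, Itgb6 − Itgb5 rests on a probe kept through the wild-type arrays and adds no support. The pairs Nid2 − Nid1 and Col4a2 − Col4a1 changed by -0.003 and 0.06.

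Since the epithelial markers fell as a list, 6 members were also set against Cdh1 on the same array, a comparison chosen after the data had been seen. Itgb4 relative to Cdh1 was higher by 1.58 in the mutant, with overlapping groups (exact p = 0.0571, 0.0686 after adjustment over the 6). Itga6, Lama5 and Lama1 relative to Cdh1 were higher on every mutant array, by 1.96, 2.14 and 2.48 (exact p = 0.0286 and 0.0571 adjusted for each), and Lamc1 by 2.10 with overlap (exact p = 0.0571). Mean differences from wild-type of these 5 members were thus less negative than that of Cdh1, and none of the 6 comparisons passed after adjustment. Of the 5, only Itgb4 was itself called. Cdh1 is 1 of 20 epithelial markers, whose differences ran from -2.75 to -0.14 (median -2.22). The result therefore holds for Cdh1 and depends on the marker chosen, and other markers were not tested in this way. Itgb6 relative to Cdh1 gave -0.07 (exact p = 0.9429) with the processed signal and 1.93 with the authors' value table.

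Of 110 other genes of the pathway, 100 were tested, 11 rose and 6 fell (17%, against 5.37% of all genes, with a median difference of 0.26). These lists were also chosen with earlier results of these data known, so their shares are descriptive. Among 9 other integrin chains, Itgb7, a beta chain of leukocytes, rose (0.83, SE 0.19, adjusted p = 0.0454) and Itgae, its alpha partner, fell (-1.16, SE 0.27, adjusted p = 0.0483). The size for Itgae was -0.33 in the authors' value table (adjusted p = 0.282) and -0.30 with normexp (0.336). With 1 array left out, neither call was stable: Itgb7 passed only without mutant array 4 and Itgae with none of the 8 arrays left out (highest adjusted p 0.125 and 0.131). Among 21 adaptor and signalling genes, Fermt1, the epithelial kindlin that activates integrins from inside the cell, fell (-2.54, SE 0.37, adjusted p = 0.0105), and Tns3, a tensin that ties integrins to actin, rose (0.61, SE 0.13, adjusted p = 0.0410). In the authors' value table Fermt1 differed by -1.36 (adjusted p = 0.00255). It passed with each array left out in turn, Tns3 with none (highest adjusted p 0.115).

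Among 28 other basement membrane and linked matrix proteins, 2 fell and 2 rose. Smoc1, a calcium-binding protein of basement membranes, fell (-2.26, SE 0.32, adjusted p = 0.00984), as did Tinag, a tubular basement membrane protein (-2.71, SE 0.49, adjusted p = 0.0207; -1.67 with normexp). Tenascin-C (Tnc), a matrix protein of mesenchyme, rose (0.89, SE 0.17, adjusted p = 0.0263), and so did Ltbp3, which holds latent TGF-beta in the matrix (0.55, SE 0.12, adjusted p = 0.0426). With 1 array left out in turn, Smoc1 passed in 8 of 8 fits, Tinag in 2 (highest adjusted p 0.0617), Tnc in 2 (0.0719) and Ltbp3 in 0 (0.117). Of 17 other receptors, syndecan-3 (Sdc3) rose (0.45, adjusted p = 0.0454), passing in 1 of the 8 fits (highest adjusted p 0.134), and Dmd, whose product dystrophin joins dystroglycan to the cytoskeleton, fell (-1.48, SE 0.22, adjusted p = 0.0112; -0.91 in the authors' value table), passing in 8.

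Of 25 enzymes and other proteins that build and remodel the sheet, 6 rose and 1 fell, against 1.55% and 3.82% of all genes. The largest rises were Mmp9, a protease that cuts type IV collagen (1.46, SE 0.28, adjusted p = 0.0252; 0.95 in the authors' value table), Lox, a collagen crosslinker (1.15, SE 0.23, adjusted p = 0.0281), P4ha2, a collagen prolyl hydroxylase (0.81, SE 0.12, adjusted p = 0.0102), and Sulf2, which trims heparan sulfate (0.78, SE 0.17, adjusted p = 0.0426). Adamts1, a protease of proteoglycans, fell (-1.08, SE 0.13, adjusted p = 0.00806). P4ha2 and Adamts1 passed with each array left out in turn, Lox in 2 of these 8 fits (highest adjusted p 0.0811), and Mmp9 and Sulf2 in 1, without mutant array 4 (highest 0.0754 and 0.114). The mesenchymal and the leukocyte marker lists (the latter 0.55 to 0.81 in wild-type and 1.05 to 1.53 in mutant arrays) were higher on every mutant array, and their part in these rises was not tested.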

How the data were processed

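RNA of 8 pools was measured on single-colour Agilent arrays. Agilent Feature Extraction 9.5.3.1 produced the scanner files, per the file headers. Their deposited processed signal is a linear intensity, corrected for background within each array and not normalized between arrays; the deposited mean signal and background are intensity values as scanned. Deposited flags (control, outlier, well above background) are other than measurements. The authors' deposited value table is also intensity; its rows were matched to spots by line position (lowest rank correlation with the mean signal 0.9991), and its columns have nearly equal quantiles (every median 227), as quantile normalization gives, but its steps are not given in the sources used here. Limma is named in the submitters' processing notes, without its role.

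The signal was taken to log2 and each array's 75th percentile subtracted. Control spots and outlier-flagged spots were dropped, spots of a probe averaged, and probes kept that stood well above background on at least 4 of 8 arrays; a gene is its kept probe of highest mean signal. Genotypes were compared over all 18512 genes with lmFit and eBayes of limma 3.58.1 under R 4.3.3; p-values were two-sided and adjusted by Benjamini-Hochberg, with a threshold of 0.05; the script was tested on simulated data. Pairs of genes were compared within arrays by an exact permutation test. The number of arrays limits the precision. Alternatives were other signals, scalings, filters and probes, slide and replicate blocks, array weights, a variance trend and each array left out in turn; the fit over single probes, the comparison with Cdh1 and the beta chain list without Itgb6 were added after the data were seen. Members, pairs, gene lists and marker lists were chosen with earlier results of these data known. Values on every array are given for members that passed and for those in pairs; other pathway genes are named if they passed, at most the 4 largest rises and 4 largest falls of a list. Probe positions are those of the files (mm8), for which no annotation was used, so exon and UTR positions are not given. Sequences are from the probe columns and RefSeq promoters (GRCm38.p6).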

Additional observations from a re-analysis of the deposited data

Results flagged for a closer look

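Dixon's ratio at its 95% limit for 4 samples set 8 of 74 groups of 4 arrays apart by 1 array. Chance alone sets apart about 1 in 20 independent groups, but these groups share the same arrays and are not independent. The share over all genes was not computed. In 6 of the 8 the array was mutant array 3. It was high for Lamc1 (4.26, the others 3.56 to 3.61), Col4a1 (2.55, the others 2.18 to 2.23), Col4a2 (3.02, the others 2.52 to 2.60) and Itgb8 (-2.72, the others -3.62 to -3.55). It was low for Dag1 (0.97, the others 1.56 to 1.61) and Itgav (-0.79, the others -0.28 to -0.22). Lamb3 was high on mutant array 1 (-3.61, the others -4.37 to -4.27), and Itga1 was low on wild-type array 1 (-3.91, the others -3.27 to -3.21). None of these 8 genes passed the threshold, and none was called in the fits without the array concerned.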

How the results depend on the processing

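Against the 5 members (3 higher, 2 lower) and 994 genes (287 higher, 707 lower) that passed, 7 members (5 higher) passed with the authors' value table, normexp, slide as a block or as a random block, and a variance trend. The members lower fell to 1 with the 75th percentile over probes bright on all arrays and with probes well above background on all 8 arrays. Without the filter on dim probes 1 member (0 higher, 1 lower) and 419 genes (42 higher, 377 lower) passed. With each array left out in turn, 1 to 4 members (0 to 3 higher, 1 to 2 lower) and 395 to 970 genes (39 to 321 higher, 333 to 649 lower) passed; the cause was not tested beyond the fewer samples. Over all genes, array weights gave 1710 calls (656 higher), slide as a random block 1535 (578 higher), 558 were higher in the value table, 549 with normexp and 461 with the variance trend. No scaling moved the median of all genes beyond 0.04 in size (-0.03 with the 75th percentile over bright probes, 0.04 with quantile normalization). The 5 pairs whose groups did not overlap became 5 to 7 with arrays left out.

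The deviations of same-numbered wild-type and mutant arrays had correlations of -0.35, -0.30, -0.005 and 0.09. These lay within the range of differently numbered arrays (-0.37 to 0.57), so they cannot show or exclude a pairing. No pairing is stated, and the main comparison used no block. With a replicate block 0 members (0 higher, 0 lower) and 340 genes (27 higher, 313 lower) passed.

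Signs turned only in members near 0 that never passed. These were Lama1 (0.0016 in the value table, 0.0062 with normexp), Lama3 (0.0070 in the value table, 0.053 with quantile normalization, 0.055 with slide as a block), Lamc3 (0.034 with quantile normalization, 0.29 with array weights), Fn1 (-0.067 with array weights) and Dag1 (-0.0054 with the 75th percentile over bright probes). Itga2 gave 0.035 with normexp, 0.053 with quantile normalization and 0.41 with array weights, Itgav -0.0024 with the mean of its probes and -0.036 with slide as a block, and Itgb8 0.010 in the value table and 0.14 with quantile normalization. With arrays left out the ranges were -0.10 to 0.083 (Lama1), -0.47 to 0.087 (Lama3), -0.22 to 0.012 (Lamb1), -0.50 to 0.12 (Lamc3), -0.056 to 0.24 (Fn1), -0.021 to 0.19 (Dag1), -0.37 to 0.29 (Itga2), -0.16 to 0.24 (Itgav) and -0.37 to 0.0095 (Itgb8).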
